A study of Rattus norvegicus with 16 samples.

Results

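The inflammasome and interleukin-1 genes followed here were 10 genes chosen by name: the sensors Nlrp3, Nlrc4 and Aim2, the adaptor Pycard, the protease Casp1, the cytokines Il1b and Il18, and 3 genes that restrain the same pathway, Nlrp12, Il1rn and Il1r2. They were found on the arrays through the RefSeq transcript that each feature names, and 9 of the 10 had a feature, 12 features in all among 45598 features for rat transcripts. Aim2, a sensor of cytosolic DNA, was not named by any feature and was not analysed here. For a gene with several features the brightest in each tissue was used. A further feature that the study's own list annotates as Nlrp12 names no transcript of the gene table used here, and it was not analysed.

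The arrays, 1 one-color array for each tissue of each rat, held RNA from lungs and from adipose tissue of male Brown Norway rats. The rats are described as 7 weeks old when sensitized, and their age at tissue collection is not given. The 5 HDM rats received 45 µg of house dust mite (HDM) under the skin in Al(OH)3 once a week for 3 weeks, and then 120 µg of HDM in saline into the nose 3 times a week for 3 weeks. The 3 control rats received saline with the same Al(OH)3 adjuvant and then saline into the nose, so both groups carried the adjuvant. The source labels name the rat, so the lung and the adipose array of a rat could be paired, and the replicates are separate animals.

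An inflammasome is a protein platform of innate immune cells. A sensor such as NLRP3 or NLRC4 detects a danger signal, binds the adaptor ASC (the product of Pycard) and activates caspase-1, which cuts the precursors of interleukin-1β and interleukin-18 into their active forms. Transcription of Nlrp3 and Il1b is the priming step that precedes activation, whereas the cutting itself leaves no trace in mRNA. The pathway has its own brakes: Il1rn encodes the receptor antagonist that occupies the interleukin-1 receptor without signaling, Il1r2 encodes a decoy receptor, and NLRP12 is an NLR protein of myeloid cells known mainly for dampening inflammatory signaling. In the airways these cytokines are known for recruiting neutrophils.

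The features behind the genes that rose in the lungs are shown by the first 30 of their 60 bases, since each value rests on this stretch of its transcript alone. Nlrp3 is given by a pair of features, because its features disagreed. On GRCr8 the genes span chr1:74848020-74885945 (Nlrp12), chr3:27509836-27525738 (Il1rn), chr3:137030200-137036581 (Il1b), chr9:49879928-49920374 (Il1r2) and chr10:44826299-44853373 (Nlrp3). The exon that each feature falls in was not analysed here.
Nlrp12, probe A_44_P328256: gacctgtcttcagtcctgggaatcagtcag
Il1rn, probe A_44_P462661: ccagagtatgtgttatttgtgctcatggaa
Il1b, probe A_43_P14911: gctgaaaatgaagagtttcatattgtgtgg
Il1r2, probe A_42_P820657: ttgccacgaatccacggagttttcagtcac
Nlrp3, probe A_44_P1109874: agtagctggcaagtttgtggcagcctctca
Nlrp3, probe A_44_P281733: ctcctgcagagcctacagttgggtgaaatg

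The 250 bases before the start site are shown for 3 ligands of the family, the cytokine and the antagonist that rose together in the lungs (Il1b and Il1rn) and the cytokine that did not (Il18). Sequences are those of RefSeq on GRCr8, with a promoter for each member other than Nlrc4 and Il1r2, whose windows were not searched. Capitals mark matches, on either strand, to 5 motifs: NF-kB core GGGNNTTTC, PU.1 core GAGGAA, C/EBP core TTGCNNAA, AP-1 core TGANTCA and the TATA box TATAAA.
Il1b (chr3:137036582-137036831, strand -): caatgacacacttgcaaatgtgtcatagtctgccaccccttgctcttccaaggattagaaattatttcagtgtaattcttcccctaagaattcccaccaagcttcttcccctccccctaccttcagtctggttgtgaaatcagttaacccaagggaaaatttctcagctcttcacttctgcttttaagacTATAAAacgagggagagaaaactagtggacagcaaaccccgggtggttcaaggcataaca
Il1rn (chr3:27520072-27520321, strand +): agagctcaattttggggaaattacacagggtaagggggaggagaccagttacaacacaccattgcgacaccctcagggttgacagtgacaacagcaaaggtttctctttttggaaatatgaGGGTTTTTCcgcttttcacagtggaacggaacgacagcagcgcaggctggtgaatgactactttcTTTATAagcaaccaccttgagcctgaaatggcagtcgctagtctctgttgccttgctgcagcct
Il18 (chr8:59801822-59802071, strand +): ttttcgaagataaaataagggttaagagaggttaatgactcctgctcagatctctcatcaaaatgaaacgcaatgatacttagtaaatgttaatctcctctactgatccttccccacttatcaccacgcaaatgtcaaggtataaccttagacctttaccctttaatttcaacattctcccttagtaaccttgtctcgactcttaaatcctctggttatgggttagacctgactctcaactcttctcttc

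The Il1rn window held 1 NF-kB core, first base 129 bases before the start, and the share of all 33469 promoters with that core in the same length was 3.7%. A match to the TATA box lay 60 bases before the start of Il1b, on the strand of the gene. That of Il1rn, 64 bases before its start, lay on the opposite strand, read as TTTATA. Of all promoters 12.9% held a match on either strand. The Il18 window matched none of the 5 motifs. Of the other members' windows, that of Aim2 held the NF-kB core and the PU.1 core, and those of Nlrp3 and Casp1 the PU.1 core, which 23.3% of all promoters hold. The C/EBP core (9.22% of all promoters) and the AP-1 core (6.34%) were in none of the members' windows. The Il1rn window lies inside the annotated gene, before the start that the table uses. The NF-kB core was shortened by its last letter after matches of the longer form had been seen. The Aim2 match and the higher share of promoters come with the shorter form, while the Il1rn match was there with both. A match describes letters and not binding.

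Values are log2 normalized intensities: the log2 of the background-corrected signal minus the array's own 75th percentile, so that 0 is the level of a feature brighter than 75% of the array. Levels of different genes are not comparable on this scale, because every feature binds with its own strength. A change is the difference in this value, HDM minus control, fitted with limma over all 45598 features. A gene was called when its Benjamini-Hochberg adjusted p was under 0.05 and its fold change over 1.5. Exact permutation tests are two-sided over the 56 ways to split 8 rats into 5 and 3, and the smallest p they can give is 0.0179.

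Between 62.2% and 68.8% of features were well above background on the lung arrays and between 51% and 60.3% on the adipose arrays, and no feature was saturated. The labeled tissues matched their markers: the 7 lung epithelium genes summed to between 10.54 and 10.81 in the lungs and the 7 adipocyte genes to between 9.41 and 10.46 in adipose tissue, on the log2 scale. A pair of adipose arrays stood apart, HDM rat 1 and control rat 1, with 10 epididymis genes summing to 12 and 12.19 on the log2 scale, and adipose changes are therefore also given without them. Control rat 3 at 4.85 and HDM rat 5 at 1.97 held a smaller epididymis signal, against -1.85 to -0.78 in the other 4 adipose arrays, and stay in those values. Lung arrays lay on 1 slide and adipose arrays on another, so a level difference between tissues and a slide difference cannot be told apart. In each tissue HDM rats 1 to 4 lay in the upper row of the slide and HDM rat 5 with the 3 control rats in the lower row, so within-row values rest on HDM rat 5. In bulk tissue, more cells of a type and more RNA per cell cannot be told apart.

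In the lungs, 5 of the 9 measured genes were called, all higher in allergic rats: Nlrp12, Il1b, Il1rn, Il1r2 and Nlrp3. Across all features 0.482% were called higher. The 3 inhibitors were all among the 5, whereas Pycard, Casp1 and Il18 did not pass the test. In 7 of the 9 genes every HDM array lay above every control array, a pattern seen in 4.65% of all features. The median change of the 9 genes was 0.95, against 0.0028 for all features. The genes were chosen with earlier results of these data known, so the shares here and in adipose tissue are a description. All features also include dim ones, whereas each gene is given by its brightest feature.

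**Figure D1:**
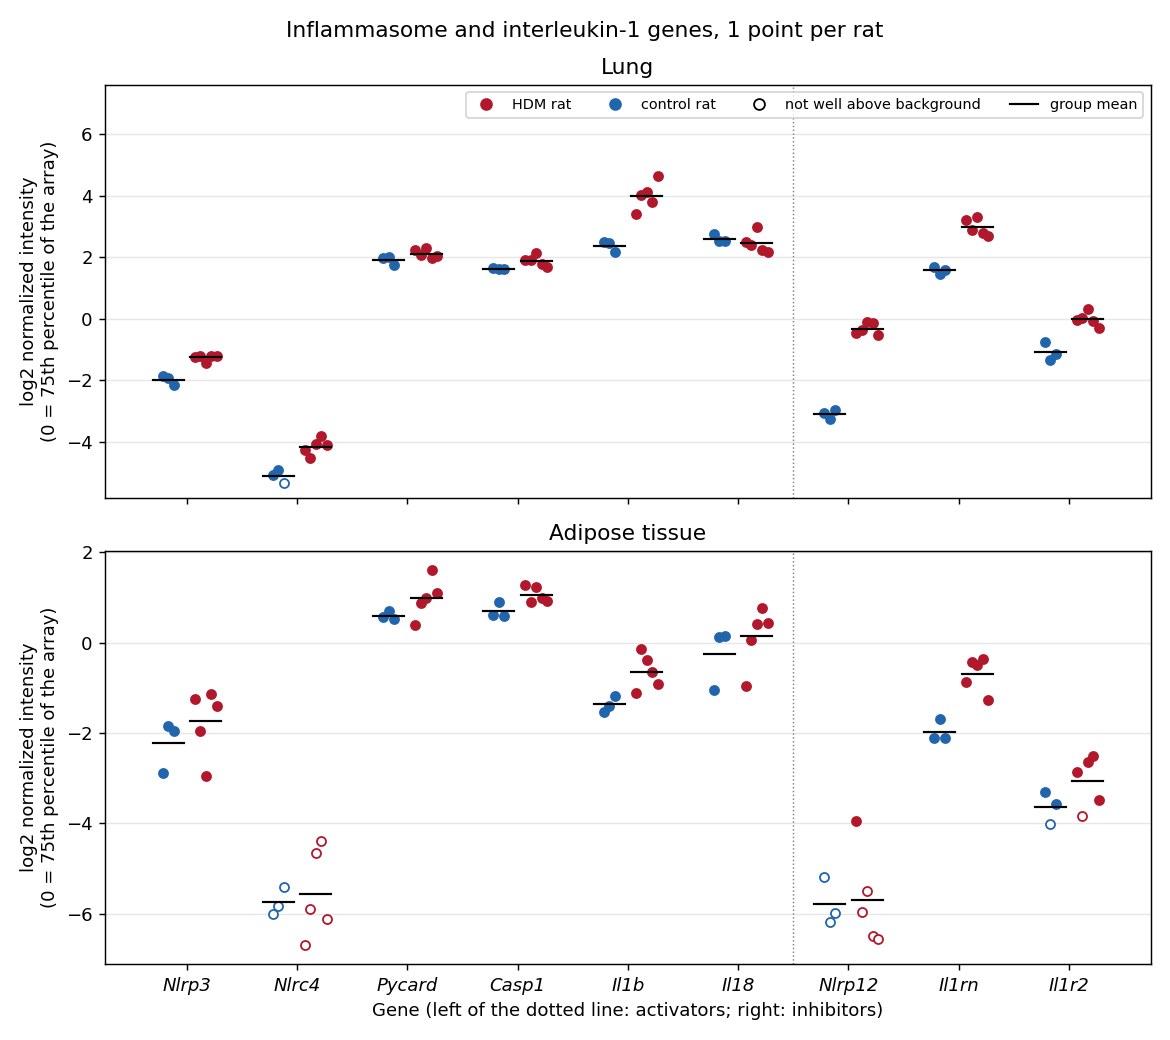
Log2 normalized intensity (vertical axis, 0 is the 75th percentile of the array) of 9 inflammasome and interleukin-1 genes in the lungs (top) and adipose tissue (bottom), 1 point per rat. Red points are the 5 HDM rats, blue points the 3 control rats, black lines the group means, and open points were not well above background; in the lungs the groups do not overlap for Nlrp3, Nlrc4, Casp1, Il1b, Nlrp12, Il1rn and Il1r2.

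Nlrp12 had the largest lung change of the 9 genes. Its lung level was -0.47, -0.37, -0.11, -0.15 and -0.52 in HDM rats 1 to 5 and -3.06, -3.27 and -2.97 in control rats 1 to 3. The gap between the groups was wider than the range within either of them. The means were -0.33 ± 0.18 (SD, n = 5) and -3.10 ± 0.15 (SD, n = 3), a change of 2.77 (SE 0.14) or 6.83-fold (95% interval 5.46 to 8.53), with a limma adjusted p of 0.00019. It was called in 23 of 24 alternative analyses. One of these, with the slide row as a block, sets HDM rat 5 alone against the 3 controls and takes its spread from the other rats, with a change of 2.58 and a limma adjusted p of 0.0235.

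Il1rn, the receptor antagonist, measured 3.20, 2.87, 3.29, 2.80 and 2.68 in the lungs of HDM rats 1 to 5. The control rats measured 1.69, 1.46 and 1.59, all below the lowest HDM rat. The means were 2.97 ± 0.27 (SD, n = 5) and 1.58 ± 0.12 (SD, n = 3), a change of 1.39 (SE 0.17) or 2.62-fold (95% interval 2.01 to 3.42), with a limma adjusted p of 0.0127. Within the lower slide row the change was 1.10, and with the row as a block the limma adjusted p was 0.326.

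Il1r2, the decoy receptor, measured -0.03, 0.01, 0.32, -0.09 and -0.30 in the HDM lungs and -0.77, -1.33 and -1.16 in the control lungs. Every HDM rat lay above every control rat, though control rat 1 came near to HDM rat 5. The change was 1.07 (SE 0.18) or 2.10-fold (95% interval 1.58 to 2.79), with a limma adjusted p of 0.0434, close to the threshold. The change within the lower row was 0.79, with a limma adjusted p of 0.609 in the fit with the row, and the call was lost when any single rat was left out (limma adjusted p 0.0588 to 0.194).

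Among the cytokines, Il1b rose and Il18 did not pass the test. Il1b, which encodes the precursor of interleukin-1β, measured 3.41, 4.04, 4.12, 3.79 and 4.63 in HDM rats 1 to 5 and 2.49, 2.45 and 2.18 in control rats 1 to 3. The HDM rats were spread over more than a log2 unit, with rat 5 highest and rat 1 lowest, but none reached down to the controls. The means were 4.00 ± 0.45 (SD, n = 5) and 2.37 ± 0.17 (SD, n = 3), a change of 1.62 (SE 0.26) or 3.08-fold (95% interval 2.04 to 4.64), with a limma adjusted p of 0.0373. Il1b was called in 15 of 24 alternative analyses. With 1 rat left out the call held in 2 of 8 fits (limma adjusted p 0.0317 to 0.148). Within the lower row, where HDM rat 5 was the only treated animal, the change was 2.26, and with the row as a block the limma adjusted p was 0.104.

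Il18, whose precursor epithelial cells and macrophages make without stimulation, measured 2.50, 2.40, 2.97, 2.23 and 2.15 in the HDM lungs. The control lungs measured 2.76, 2.53 and 2.52, inside the HDM range. The change was -0.15 (95% interval -0.60 to 0.29), with a limma adjusted p of 0.929.

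Nlrp3 was the called sensor. Its brightest feature measured -1.24, -1.20, -1.43, -1.20 and -1.20 in HDM rats 1 to 5 and -1.88, -1.93 and -2.16 in control rats 1 to 3. The HDM rats were nearly equal apart from rat 3, which was lowest but still above the controls. The change was 0.73 (SE 0.11) or 1.66-fold (95% interval 1.39 to 1.99), with a limma adjusted p of 0.0326. Nlrp3 was called in 10 of 24 alternative analyses, and in 1 of the 8 with 1 rat left out. The second Nlrp3 feature shown above, A_44_P281733, differed by 0.80 without overlap between groups, but its limma adjusted p was 0.0928. The remaining feature, A_44_P1109879, differed by 0.13, with a limma adjusted p of 0.945. The mean over the 3 features differed by 0.55, with a limma adjusted p of 0.147, and with the slide row as a block the change was 0.79 and the limma adjusted p 0.378.

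Nlrc4, the sensor that responds with NAIP proteins to bacterial flagellin and secretion systems, was dim. It measured -4.28, -4.54, -4.07, -3.81 and -4.10 in HDM rats 1 to 5 and -5.08, -4.90 and -5.35 in control rats 1 to 3, well above background in 5 HDM and 2 control lungs. The groups did not overlap. Its change of 0.95 (95% interval 0.53 to 1.37) missed the threshold, with a limma adjusted p of 0.0696, and under normexp background correction it was 0.20. A second Nlrc4 feature was well above background in only 1 of the 8 lungs.

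The adaptor and the protease did not pass the test in the lungs. Pycard measured 2.23, 2.06, 2.29, 1.96 and 2.03 in the HDM rats and 1.98, 2.00 and 1.74 in the control rats, which overlapped, with a change of 0.21 (95% interval -0.08 to 0.49) and a limma adjusted p of 0.701. Casp1 measured 1.92, 1.91, 2.12, 1.79 and 1.67 in the HDM rats against 1.65, 1.62 and 1.61 in the control rats. All HDM lungs lay above the controls, HDM rat 5 by the least. The change was 0.26 (95% interval -0.02 to 0.54), with a limma adjusted p of 0.554.

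**Figure D2:**
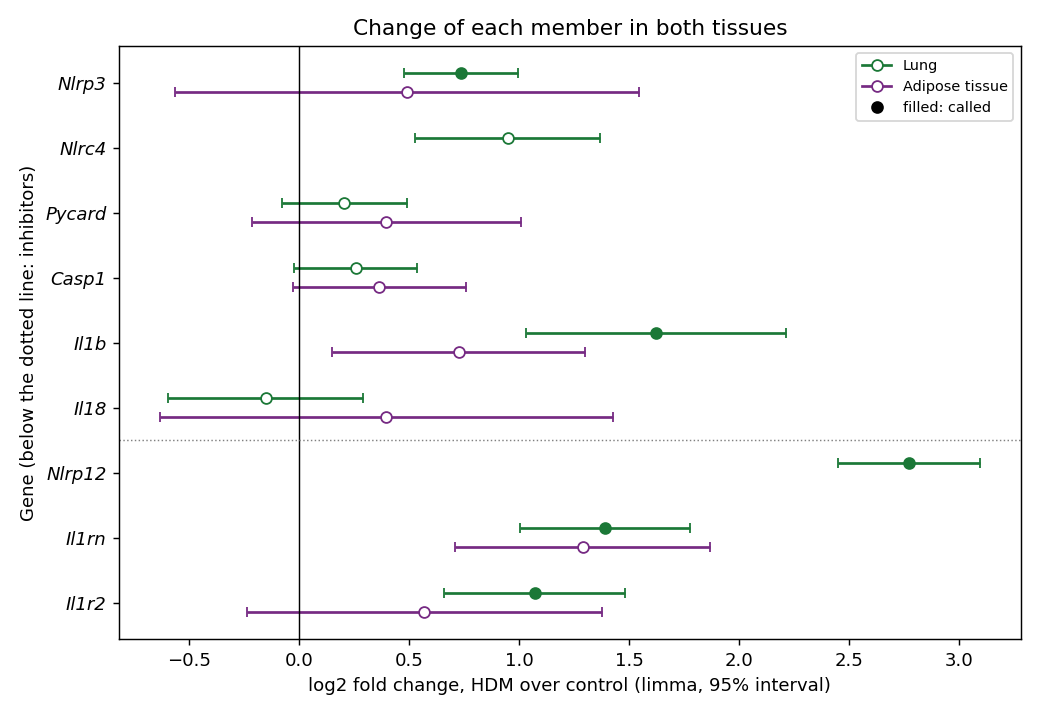
Log2 fold change of each gene, HDM over control (horizontal axis), with its 95% interval from limma, in the lungs (green) and in adipose tissue (purple); filled points were called. In the lungs Nlrp12 lies farthest right at 2.77, and every adipose point is open; adipose Nlrc4 and Nlrp12 are not drawn, because no control array was well above background there.

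Set against each other, the inhibitors lay farther above the controls than the activators did in every allergic lung. With each gene centered on its control mean, the mean of the 6 activators was 0.52, 0.54, 0.76, 0.56 and 0.63 in HDM rats 1 to 5. That of the 3 inhibitors was 1.77, 1.70, 2.03, 1.72 and 1.49 in the same rats. The activators minus the inhibitors came to -1.14 ± 0.16 (SD, n = 5), between -1.27 and -0.86, while the control rats ranged from -0.17 to 0.24. These are averages of few genes, with Nlrp12 the largest term, and they carry no test. No such mean is given for adipose tissue, where Nlrc4 and Nlrp12 lay at background.

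In the lungs the changes of the cytokine and of its antagonist did not differ beyond the spread between rats. There the change of Il1b exceeded that of Il1rn by 0.23 ± 0.63 (SD over 5 HDM rats), from -0.58 to 1.16, with an exact permutation p of 0.607. HDM rat 5, with the highest Il1b and the lowest Il1rn of the HDM lungs, gave the 1.16, and without it the difference was 4.3e-05 (exact permutation p = 1). In adipose tissue the change of Il1b was smaller than that of Il1rn by a log2 difference of -0.56 ± 0.30 (SD over 5 HDM rats), negative in all 5 (-0.90 to -0.24) against -0.31 to 0.32 in control rats, with an exact permutation p of 0.0536. With n of 5 and 3, neither difference passed 0.05, which does not show that the pair moved equally.

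**Figure D3:**
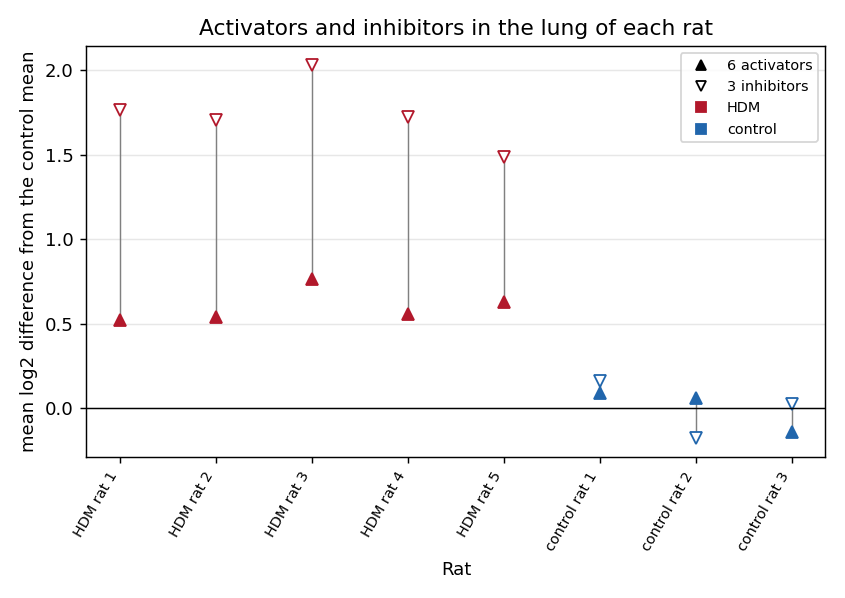
Mean log2 difference from the control mean (vertical axis) of 6 activators (filled, pointing up) and 3 inhibitors (open, pointing down) in the lung of each rat; red marks HDM rats and blue control rats. In all 5 HDM lungs the inhibitors lie above the activators, by 0.86 to 1.27.

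In adipose tissue none of the 9 genes was called, and 0% of all features were called higher. Of the 9, 7 were well above background in at least 1 array of each group, a limit set after the data were seen. Their differences were all positive and had a median of 0.49, but none was called. Scaling arrays by their medians raised all of them by the same shift, so it could not turn any of them negative. The median of all 45598 features was -0.15 (0.14 with median scaling), and 35.8% were positive. The other features of Nlrp3 lay at -0.31 and -0.34, and the mean over its features at -0.05. The 10 macrophage markers had positive differences too, with a median of 0.70 and 0 called. Their summed log2 level was between 7.21 and 8.65 in HDM and between 7.01 and 7.87 in control adipose tissue, and their part in the members' values was not tested. Of the 9, 2 (Il1rn and Il1b) had an unadjusted limma p under 0.05, as did 9.90% of all features. The methods' unpaired test of each feature, adjusted over all features, also called 0 of the 9. With limma p values adjusted only over features past 1.5-fold, 28 features were called but none of the 9. In 3 genes every HDM array lay above every control array, against 1.54% of features. Those genes were Il1rn, Il1b and Casp1.

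Il1rn had the largest adipose change of the 9 genes. It measured -0.88, -0.42, -0.50, -0.37 and -1.27 in HDM rats 1 to 5 and -2.11, -1.70 and -2.11 in control rats 1 to 3, with HDM rat 5 lowest of its group and still above all controls. The change was 1.29 (SE 0.25) or 2.44-fold (95% interval 1.63 to 3.65), with a limma adjusted p of 0.263 and an unadjusted limma p of 0.000914. It was called in 1 of 25 alternatives, a single limma fit to all 16 arrays in which the rat was a random block (adjusted p 0.0349). Without HDM rat 1 and control rat 1 the change was 1.27, with a limma adjusted p of 0.53.

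Il1b in adipose tissue measured -1.12, -0.14, -0.38, -0.66 and -0.91 in HDM rats 1 to 5 and -1.53, -1.40 and -1.18 in control rats 1 to 3. The groups came close, HDM rat 1 lying just above control rat 3. The change was 0.73 (SE 0.25) or 1.65-fold (95% interval 1.11 to 2.46), with a limma adjusted p of 0.423. Without HDM rat 1 and control rat 1 the change was 0.77.

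Casp1 in adipose tissue measured 1.27, 0.90, 1.24, 0.98 and 0.92 in the HDM rats and 0.60, 0.90 and 0.59 in the control rats. Control rat 2 lay level with HDM rat 2 up to the second decimal. The change was 0.36 (95% interval -0.03 to 0.76), with a limma adjusted p of 0.536. Without HDM rat 1 and control rat 1 it was 0.27.

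The other adipose values overlapped between groups. Pycard ranged from 0.39 to 1.62 in HDM rats and from 0.53 to 0.71 in control rats, with a change of 0.40 (limma adjusted p 0.692). Without HDM rat 1 and control rat 1 the Pycard change was 0.53. Il18 ranged from -0.96 to 0.78 and from -1.04 to 0.15, with a change of 0.40 (limma adjusted p 0.820), and its lowest value in each group belonged to HDM rat 1 and control rat 1. Without that pair its change was 0.28.

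Nlrp3 in adipose tissue ranged from -2.95 to -1.14 in HDM rats and from -2.89 to -1.84 in control rats, with a change of 0.49 (limma adjusted p 0.801) that fell to 0.04 without HDM rat 1 and control rat 1. Il1r2, well above background in 4 HDM and 2 control rats, differed by 0.57 (95% interval -0.24 to 1.37, limma adjusted p 0.655). Without HDM rat 1 and control rat 1 the Il1r2 difference was 0.69. Nlrc4 was not well above background in any adipose array. Nlrp12 was well above it only in HDM rat 1, at -3.95. For these last 2 genes the fitted adipose differences compare signals near background, and none is given as a fold.

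The test of the difference between tissues, made within rats on lung minus adipose values, called none of the 9 genes and 0.00219% of all features, and 2 of the 9, Nlrp12 and Il1b, had an unadjusted limma p under 0.05. For Nlrp12 and Nlrc4 no size of the difference is given, since their adipose values lay mostly at background. The change of Il1b was larger in the lungs by 0.90 (95% interval 0.12 to 1.68), with an exact permutation p of 0.0179 and a limma adjusted p of 0.606. Il1rn differed by 0.10 (95% interval -0.57 to 0.78), so the interval holds no difference as well as one of up to 0.78.

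The neighbors of the pathway were taken from 7 lists of 76 genes, 65 of them with a feature. The lists, too, were written with earlier results of these data known. In the lungs 3 of the 65 were called higher and 0 lower, and their median change was 0.21. In adipose tissue limma called 0 of the 65 in either direction, with a median of -0.01. At an unadjusted limma p under 0.05 there were 22 of the 65 in the lungs, 20 of them higher, and 7 in adipose tissue, 4 of them higher. Over all features the share was 10.2% in the lungs and 9.90% in adipose tissue, and the adipose count of 7 lies near it.

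Among the 6 measured sensors and NLR regulators, Mefv, which encodes the sensor pyrin, rose by 1.13 in the lungs (limma adjusted p 0.0363). In adipose tissue the smallest adjusted p of that list belonged to Nlrp6, which was well above background in 2 control and 0 HDM arrays, at least 2.32-fold higher in control rats with a limma adjusted p of 0.373. Among 9 genes of NLRP3 licensing and activation, Gbp5, a guanylate-binding protein, rose by 0.72 in the lungs (limma adjusted p 0.0496). Panx1, a channel that releases ATP, differed by 0.51 in adipose tissue (limma adjusted p 0.486).

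Of 9 caspase, pyroptosis and protease inhibitor genes none was called in the lungs or in adipose tissue. Gsdme, a pore-forming gasdermin, differed by 0.58 in the lungs (limma adjusted p 0.0625). Of the 7 other interleukin-1 family ligands none was called either, and 3 of them were never well above background in each tissue. Il33, the epithelial alarmin, differed by 0.48 in the lungs (limma adjusted p 0.15). Il1f10 had the smallest limma adjusted p of these ligands in adipose tissue, 0.706, and was not well above background there.

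None of 7 receptors and binding proteins was called. Il18bp, which binds and neutralizes interleukin-18, differed by 0.48 in the lungs (limma adjusted p 0.161). Il1rl1, which encodes the interleukin-33 receptor, differed by 1.24 in adipose tissue with values from -4.52 to 1.48 within the HDM rats (limma adjusted p 0.820). None of 11 receptor signaling genes was called: Irak3, an inhibitor of the signaling kinases, differed by 0.57 in the lungs with a limma adjusted p of 0.0482 but stayed under 1.5-fold. Myd88, the receptor adaptor, differed by 0.41 in adipose tissue (limma adjusted p 0.606).

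Of 16 interleukin-1 target genes with a feature, only Sele was called in the lungs. It encodes E-selectin, the endothelial adhesion molecule that slows passing leukocytes, and it rose by 2.86 (SE 0.16), with a limma adjusted p of 0.000354. In adipose tissue Sele was well above background in 5 HDM and 0 control arrays, at least 4.06-fold higher in HDM rats, with a limma adjusted p of 0.218. The list's median change was 0.26 in the lungs and -0.25 in adipose tissue.

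Most neutrophil markers were also higher in the HDM lungs than in the control lungs. Of 9 measured neutrophil genes, 6 were called higher in the lungs (S100a8, S100a9, Csf3r, Cxcr2, Mmp8 and Mmp9) and 0 lower, and Ltf was not well above background in any lung. Fpr1, a receptor for formylated peptides, went the other way, with every HDM lung below every control lung and a difference of -0.66 (limma adjusted p 0.0877). Their summed log2 level was between 6.96 and 8.08 in HDM lungs and between 3.23 and 3.52 in control lungs. In adipose tissue 0 of the 9 were called, and the summed level ran from 1.89 to 3.23 in HDM rats and from -0.11 to 0.67 in control rats. The sum adds linear signals, so the brightest genes weigh most. Of the 9 genes, 6 had positive adipose differences, with a median of 0.58 and a range from -1.44 to 4.66.

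Markers of other myeloid cells differed less. The 10 macrophage genes summed to between 8.82 and 9.23 in HDM lungs and between 8.96 and 9.15 in control lungs, with 0 called. Of 5 monocyte genes 1 was called higher in the lungs, Vcan, and their sum was between 2.50 and 2.77 in HDM lungs against 2.29 to 2.41 in control lungs. The 5 eosinophil genes summed to between -0.26 and 1.31 in HDM lungs and between -1.85 and -1.02 in control lungs, with 0 called, and Epx was well above background in 4 HDM and 0 control lungs. The part of these cells in the changes of Nlrp12, Il1b, Il1rn, Il1r2 and Nlrp3 was not tested.

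**Figure D4:**
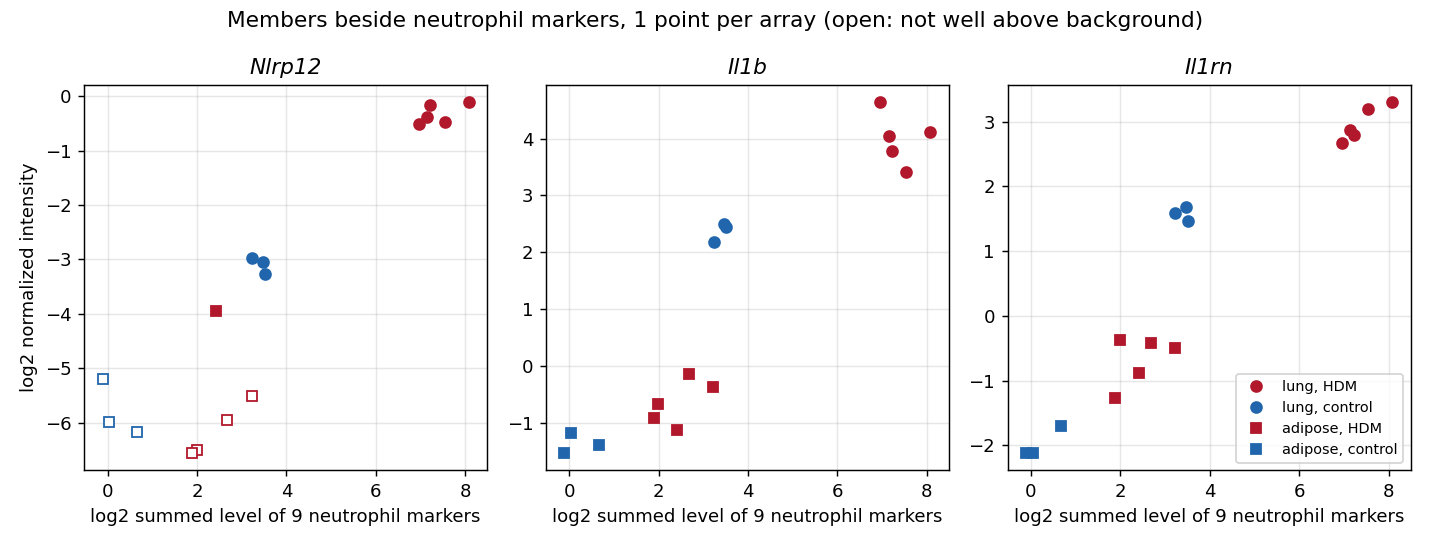
Log2 normalized intensity (vertical axis) of Nlrp12, Il1b and Il1rn against the log2 summed level of 9 neutrophil markers (horizontal axis), 1 point per array; circles are lungs, squares adipose tissue, red HDM and blue control rats, open symbols not well above background. The 5 HDM lungs stand apart at summed levels from 6.96 to 8.08. Among them HDM rat 5, at the lowest level, has the highest Il1b (4.63) and the lowest Il1rn (2.68) and Nlrp12 (-0.52). HDM rat 3, at the highest level, has Il1b at 4.12 and the highest Il1rn (3.29) and Nlrp12 (-0.11).

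The genes whose pattern was most like that of a member were ranked by Pearson r over the 16 arrays, among 15684 features well above background on at least 8 of them. The arrays share 8 rats and 2 slides, and a tissue difference alone raises r, so these values are a description. For Il1b they were Ripor2, Slc2a6, Ltb, Mxd1 and Il1rn, with r from 0.985 to 0.977. Its antagonist thus ranked the fifth among all genes compared. Within the tissues alone, over HDM and control arrays together, r to Il1rn was 0.833 in the lungs and 0.858 in adipose tissue. A difference between HDM and control rats that both genes share also raises such an r, and r among HDM rats alone was not computed.

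For Nlrp12 the 5 genes were H3f3b, Ceacam4, Psmg2, Fcar and Cd40, with r from 0.972 to 0.960. Within the lungs, over HDM and control rats together, r was 0.978 for Ceacam4 and 0.972 for Fcar, which encodes the myeloid receptor for IgA. Both also rose there, by 1.93 and 1.83 (limma adjusted p 0.004 and 0.007), which raises r. For Nlrp3 the values were lower: Zfp217, Elp6, Prr13, Mycn and Siglec5, with r from 0.816 to 0.746. Of these Siglec5, a sialic acid-binding receptor of myeloid cells, rose by 0.99 in the lungs (limma adjusted p 0.015).

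The endogenous controls Gapdh and Hprt1 differed by 0.09 and -0.05 in the lungs and by -0.14 and 0.04 in adipose tissue. Scaling to them left the lung changes of Nlrp12, Il1b and Il1rn at 2.75, 1.60 and 1.37. For Nlrp3 it gave 0.72 with a limma adjusted p of 0.0766, which ended the call.

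**Figure D5:**
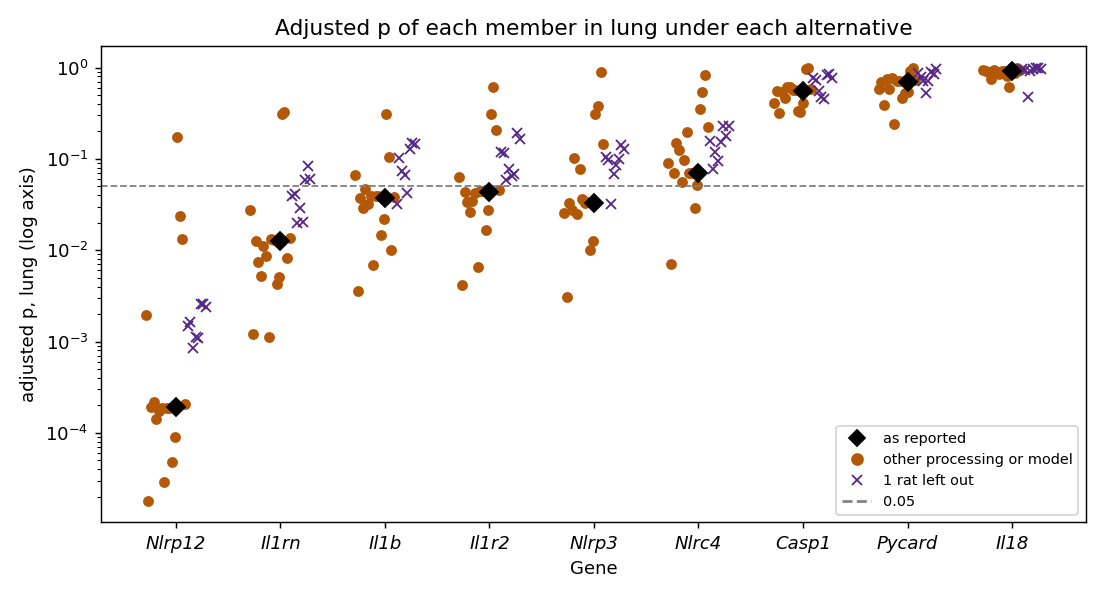
Benjamini-Hochberg adjusted p of each gene in the lungs (vertical log axis) as reported (black diamonds), under other processing or models (brown circles) and with 1 rat left out (purple crosses); the dashed line is 0.05. Nlrp12 lies below the line in all but 1 analysis, Il1rn in 19 of 24, and Casp1, Pycard and Il18 never do.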

How the data were processed

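The deposited scanner files give linear spot intensity. Agilent Feature Extraction 12.0.3.1 made them, per the file headers, subtracting background and removing within-array trends but leaving arrays unscaled. A second deposited file holds the authors' log2 values, whose steps are not given in the sources used here. On these arrays 99.95% of lung and 99.83% of adipose values of that table lay within 0.1 of the 75th-percentile-shifted scanner values centered per feature. Of its cells 39 hold no number.

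Here outlier spots were dropped, spots of a feature averaged, log2 taken and the array's 75th percentile subtracted. Each tissue was fitted alone with limma 3.58.1 (lmFit and eBayes, R 4.3.3), with Benjamini-Hochberg adjustment over 45598 features, and the procedure was tested on simulated data. Exact two-sided permutation tests covered single values. RefSeq transcripts named 21229 features through the GRCr8 gene table. The text names all members, pathway genes called in a tissue, for each list with none called the gene of smallest adjusted p, the endogenous controls, marker genes needed to state a list, and the 5 genes most like Il1b, Nlrp12 and Nlrp3. A gene that this rule names in adipose tissue is not reported here. Members and lists were chosen with earlier results of these data known. The number of arrays limits the precision. Alternatives covered the test, scaling, background, filters, outlier spots, blocks and each rat left out. The normexp alternative used median spot signals, which the scanner files hold.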

Additional observations from a re-analysis of the deposited data

Results flagged for a closer look

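Of 18 groups of 5 HDM arrays, 1 held a value far from the others. In the lungs the Nlrp3 level of HDM rat 3, at -1.43, was lowest, the next was -1.24 and the highest -1.20. The gap made up 0.842 of the range, above Dixon's 95% critical value of 0.71 for 5 samples. Chance flags about 1 in 20 such groups, so 1 of 18 is what it gives. Without HDM rat 3 Nlrp3 was called in the lungs (limma adjusted p 0.0319), the only 1 of the 8 fits with 1 rat left out that called it. In the others the limma adjusted p ran up to 0.141.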

How the results depend on the processing

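In the lungs 5 members were called as reported. The count was 3 by the methods' t-test after Benjamini-Hochberg adjustment (Nlrp3, Nlrp12 and Il1rn) and 3 when all 16 arrays were fitted together with the rat as a random block (Nlrp12, Il1b and Il1rn). It was 1 with the slide row as a block (Nlrp12), a fit that sets HDM rat 5 alone against the controls and assumes that it varies like the other rats. Leaving out 1 rat at a time gave between 1 and 3: Nlrp12 alone without any 1 of control rats 1, 2 and 3, Nlrp12 and Il1rn without HDM rat 2 or 4, Nlrp12, Il1rn and Il1b without HDM rat 1 or 5, and Nlrp12, Il1rn and Nlrp3 without HDM rat 3. Each such fit has fewer samples. In the remaining alternatives, apart from the replicate block below, the count was within 1.5 times of 5. Pathway genes called in the lungs, 3 as reported, were 8 when adjusting only over features past 1.5-fold, 6 with quantile normalization, with the percentile over features well above background, without dim features or with array weights, 5 with normexp, and 1 with the slide row as a block; with 1 rat left out they were between 1 and 2. In adipose tissue the counts of 0 became 1 member and 1 pathway gene in the fit to all 16 arrays with the rat as a random block, and stayed 0 in the other alternatives.

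With the replicate number as a block the lungs gave 0 members and 0 pathway genes, and 0 of all features against 390 as reported; the lowest limma adjusted p of a member was then 0.173, for Nlrp12, and limma has few residual degrees of freedom. In the lungs the numbers did not pair HDM with control rats: deviations of same-numbered lungs correlated at -0.06, -0.08 and 0.05. Those of adipose arrays correlated at 0.59, 0.14 and 0.10. The 0.59 belonged to HDM rat 1 and control rat 1, the pair with the high epididymis signal. For the tissue difference, which pairs arrays of the same rat, the fit with no replicate block also called 0 members.

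Differences that were not called changed sign in some settings; those of adipose Nlrp12 and Nlrc4 compare signals near background and are not folds. In the lungs Il18 was 0.0195 with the replicate number as a block, against -0.15. In adipose tissue Nlrp12 was -0.0443 with array weights, -0.77 with the slide row as a block, -0.0461 without HDM rat 1 and control rat 1, and between -0.34 and 0.39 with 1 rat left out. Adipose Nlrc4 was -0.0058 with the replicate number as a block, -0.37 with the slide row as a block and -0.0297 over the mean of its features, and adipose Nlrp3 -0.0512 over that mean; with 1 rat left out Nlrc4 lay between -0.10 and 0.48. With median scaling the tissue difference was -0.10 for Nlrp3 and -0.25 for Il1rn. With 1 rat left out that difference lay between -0.0161 and 0.63 for Nlrp3, between -0.10 and 0.23 for Il1rn and between -0.37 and 0.0035 for Pycard.

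The activators minus inhibitors in the lungs were -0.94 with normexp and -0.86 within the lower slide row, against -1.14. The Il1b minus Il1rn change there was 1.16 within that row. Apart from the smaller number of samples or tested features named above, the cause was not tested. The within-row changes of single genes and the use of median spot signals in normexp were chosen after seeing the data. Signal over background limits Nlrc4 and, in adipose tissue, Nlrp12 and Il1r2.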
